A study of Mus musculus with 6 samples.

Results

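Vitamin A handling in MHCII hi cells of the mouse gut wall was examined through 9 genes of retinoid metabolism and retinoic acid response: Rbp4, Rbp2, Rdh10, Rdh7, Dhrs3, Aldh1a1, Aldh1a2, Crabp2 and Rarb. The genes were selected by name with the difference between CX3CR1- and CX3CR1+ cells already in view, so their values in that contrast are a description and carry no test. Of the 9 genes, 8 had a row among the 26110 rows of the normalized RNA-seq table, and Rdh7 is not listed there.

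The cells came from the muscularis externa (ME, the smooth muscle coat) of the small bowel of naive, untreated CX3CR1 GFP/+ mice, in which 1 copy of the fractalkine receptor gene is replaced by GFP. MHCII hi cells were sorted by GFP into CX3CR1- and CX3CR1+ cells and sequenced in bulk, with 3 libraries of each population. All 6 libraries thus share the heterozygous genotype, and the GFP signal alone separated the populations. The labels call both populations dendritic cells, whereas the study treats them as macrophages. Tissue of 6 mice was pooled for each group, and whether every library had a separate pool is not stated, so p-values measure only the spread between libraries, which may be technical.

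Retinol travels in blood on RBP4 and is carried inside cells by retinol-binding proteins, RBP2 being the form of the absorbing intestinal epithelium. Retinol dehydrogenases such as RDH10 oxidize retinol to retinal in a reversible step that DHRS3 drives back, and the ALDH1A enzymes oxidize retinal to retinoic acid. Retinoic acid, carried by CRABP2, binds nuclear receptors of the RAR and RXR families, and in the gut it is best known as a product of epithelium and of migratory dendritic cells that imprints gut homing on lymphocytes.

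RAR and RXR pairs bind direct repeats of a 6-base half-site, and Rarb is the textbook gene with such an element in its own promoter. The half-site AGGTCA and its variants, written as AGTTCA or with another first base as GGGTCA and, with both changes, as GGTTCA, were searched on both strands as direct repeats of any pair of them with 1, 2 or 5 spacer bases of any kind. The windows ran from 250 bases before to 50 after each RefSeq start in GRCm38.p6. Windows were given for 7 of the 9 genes, 12 windows in all, and not for Crabp2 and Rdh10. The repeat with 5 spacer bases was found in 1 of the 12 windows, that of Rarb, against 32 of all 32851 promoter windows (0.0974%). The repeats with 2 and with 1 spacer bases were in none of the 12 and in 0.268% and 0.222% of all windows. The Rarb window, chr14:16575427-16575726 on the minus strand, is shown because Rarb is both the receptor and the response gene of the set, with the half-sites in capitals.
Rarb: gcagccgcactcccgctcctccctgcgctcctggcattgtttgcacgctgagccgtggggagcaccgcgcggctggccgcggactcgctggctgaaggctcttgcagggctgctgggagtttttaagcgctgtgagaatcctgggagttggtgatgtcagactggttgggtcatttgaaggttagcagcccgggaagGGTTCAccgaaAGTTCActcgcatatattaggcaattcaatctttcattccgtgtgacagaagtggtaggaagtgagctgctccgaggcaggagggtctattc
The repeat lay from 53 to 37 bases before the start. Among the 52 other genes of the pathway, 39 had a window, and the same search found a repeat in Cyp26a1, which breaks down retinoic acid, and Bco1, which cleaves beta-carotene to retinal. These stretches are shown for comparison with Rarb, again with half-sites in capitals, from chr14:16575501-16575541 on the minus strand, chr19:37697764-37697804 and chr8:117095797-117095833 on the plus strand.
Rarb: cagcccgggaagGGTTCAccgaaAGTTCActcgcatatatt
Cyp26a1: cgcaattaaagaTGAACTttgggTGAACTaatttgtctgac
Bco1: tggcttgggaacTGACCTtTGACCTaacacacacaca
In Cyp26a1 the repeat has 5 spacer bases and in Bco1 it has 1, and both read on the strand opposite to the gene. Such a match describes the letters only. Cyp26a1 is not listed in the expression table, while Bco1 is described among the pathway genes.

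Of the 8 listed genes, 7 had a higher mean in CX3CR1- cells and 1, Dhrs3, a lower mean. The populations did not overlap in 5 genes, Rbp2, Rdh10, Aldh1a1, Aldh1a2 and Rarb, and overlapped in Rbp4, Dhrs3 and Crabp2. Of the 17812 genes that averaged 10 or more across libraries, 40% did not overlap in either direction, and nothing is read from the count of the chosen genes. Of the 8, Rbp4, Rarb and Crabp2 were below that mean. Values are the deposited normalized values, which are comparable between libraries for 1 gene, and differences are those of the mean log2(value + 1), CX3CR1- minus CX3CR1+. For genes outside the chosen set, higher, lower and passed mean a log2 fold change of at least 1 in size with a limma adjusted p of at most 0.05. In bulk RNA, fewer cells of a type and less RNA per cell cannot be told apart.

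**Figure D1:**
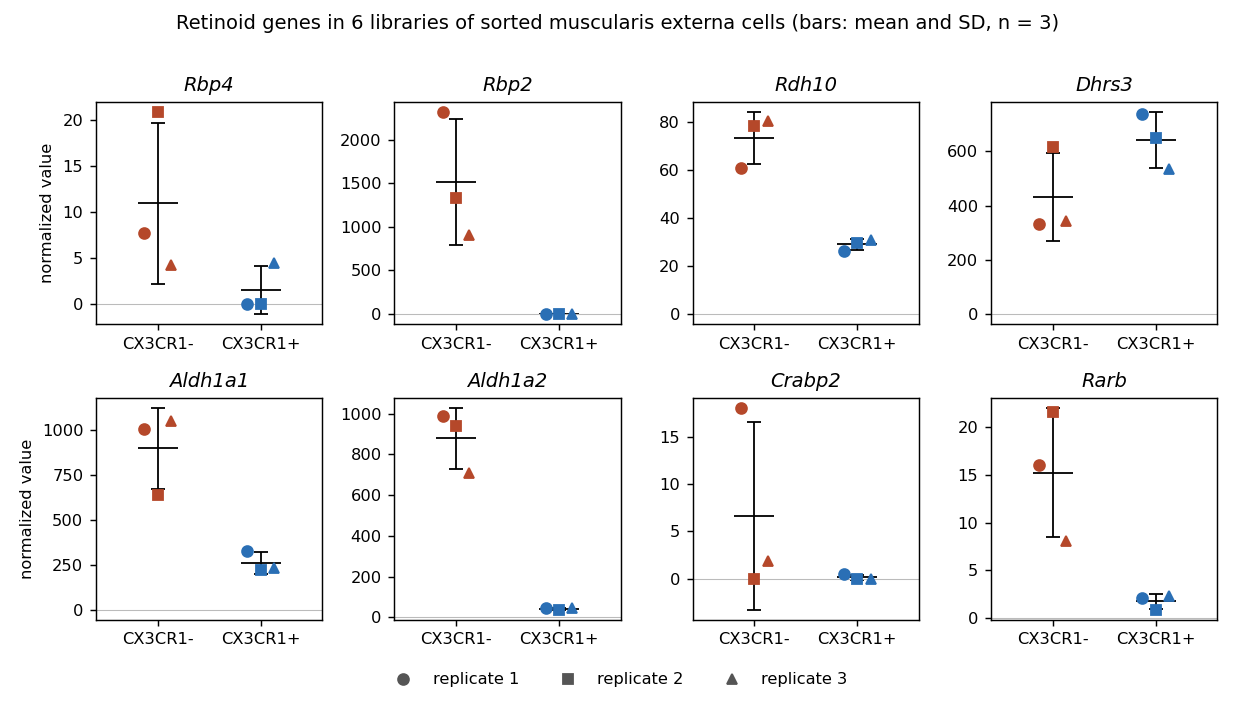
Normalized value (y axis, a separate linear scale for each gene) of the 8 listed genes in the 3 CX3CR1- and 3 CX3CR1+ libraries; points are libraries, bars the mean and SD. Rbp2 and Aldh1a2 lie far apart between the populations, Dhrs3 is the gene with the lower CX3CR1- mean, and Crabp2 has a single high library.

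The transport proteins came first in the pathway. Rbp4, the retinol carrier of plasma, was at 7.76, 20.9 and 4.24 in CX3CR1- replicates 1 to 3 and at 0, 0 and 4.51 in the CX3CR1+ replicates. The populations overlapped, the values stood for at most 11.7 reads in a library, and replicate 2 made up 63.5% of the CX3CR1- sum. The means were 10.96 ± 8.78 and 1.504 ± 2.61 (SD, n = 3 each), a log2 difference of 2.50.

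Rbp2, the retinol carrier of absorptive enterocytes, was at 2316, 1327 and 903 in CX3CR1- cells. In CX3CR1+ cells it was at 1.85, 0 and 0, which is about 4 reads in replicate 1 and none in the others. The populations did not overlap, and the CX3CR1- libraries themselves differed widely, with a mean of 1515 ± 725 (SD, n = 3). With 3 reads, the limit of measurement, in place of each 0 and the measured value in replicate 1, the CX3CR1+ mean was 2.85 and Rbp2 was at least 531-fold higher in CX3CR1- cells. The log2 difference was 9.95, a value that depends on the pseudocount.

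Rbp2 moved with genes of enterocytes. All 10 of 10 enterocyte markers were higher in CX3CR1- cells, with a summed level of 17263 to 31979 against 27.2 to 56.9, and Apoa4 and Alpi were at 0 in every CX3CR1+ library. Within CX3CR1- cells, replicates 1, 2 and 3 held 51.0, 29.2 and 19.9% of the Rbp2 sum and 41.3, 36.5 and 22.3% of the enterocyte sum. The enterocyte sum came mostly from Fabp2 (21161, 21000 and 12559), while Mttp of the same list was highest in replicate 2 (40.4, 63.2 and 26.7). Over the 10 markers, replicate 2 was 0.754 to 1.89 times the mean of replicates 1 and 3, and for Rbp2 0.824 times. The 3 genes with the profile most like that of Rbp2 were Apoa1, Fabp1 and Krt20, all of them on the enterocyte list. Their profiles differed from that of Rbp2 by a root mean square of 0.29, 0.37 and 0.44 log2 units over the 6 libraries. The part of enterocyte RNA in the level of Rbp2 was not tested.

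For the step between retinol and retinal the direction differed between the genes. Rdh10, the main embryonic retinol dehydrogenase, was at 60.9, 78.6 and 80.7 in CX3CR1- cells and at 26.5, 29.8 and 30.8 in CX3CR1+ cells. Its populations did not overlap, and its spread was the smallest of the 8 genes relative to the mean. The means of 73.4 ± 10.8 and 29.1 ± 2.26 (SD, n = 3 each) gave a ratio of 2.53 and a log2 difference of 1.30.

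Dhrs3, a retinoic acid-induced reductase that returns retinal to retinol, went the other way. It was at 334, 617 and 343 in CX3CR1- cells and at 739, 650 and 533 in CX3CR1+ cells. CX3CR1- replicate 2 lay inside the CX3CR1+ range and the other 2 libraries below it. The means were 431 ± 161 and 641 ± 103 (SD, n = 3 each), a log2 difference of -0.62. Replicate 2 was 1.82 times the mean of replicates 1 and 3 for Dhrs3, while over 17789 genes this ratio had a median of 0.967 and an 80% range of 0.386 to 1.86. Without that library the log2 difference was -0.91. Replicate 2 held 47.7% of the CX3CR1- sum of Dhrs3, 63.5% of that of Rbp4 and 47.2% of that of Rarb. It was also the largest library for the B and plasma cell list (54.2%), the sort gate list (37.5%) and the conventional dendritic cell list (36.4%). The B and plasma cell sum came mostly from Jchain (946, 2900 and 1115), while Ms4a1 of the same list was lowest in replicate 2 (163, 117 and 163). All 5 of 5 B and plasma cell markers were higher in CX3CR1- cells, at a summed 1388 to 3586 against 22.2 to 30.2, with Mzb1 at 0 in every CX3CR1+ library, and the part of these cells in Dhrs3 was not tested.

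The retinal dehydrogenases, which make retinoic acid, were both higher in CX3CR1- cells and in unequal measure. Aldh1a1 was at 1008, 639 and 1048 in CX3CR1- cells and at 328, 220.2 and 230.7 in CX3CR1+ cells. The populations did not overlap, and CX3CR1+ cells retained a sizeable level. The means were 898 ± 226 and 260 ± 59.7 (SD, n = 3 each), a ratio of 3.46 and a log2 difference of 1.78. Aldh1a1 shares 5.70% of its 31-base stretches with its paralog Aldh1a7, and overlaps C730002L08Rik and Gm6684 on the other strand.

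Aldh1a2, the form known from gut dendritic cells and from mesothelium, was at 989, 941 and 710 in CX3CR1- cells. In CX3CR1+ cells it was at 44.9, 36.9 and 45.3. All CX3CR1- libraries lay far above all CX3CR1+ libraries, and the spread within each population was small beside the gap. The means were 880 ± 149 and 42.4 ± 4.73 (SD, n = 3 each), a ratio of 20.8 and a log2 difference of 4.34. Aldh1a2 shared no 31-base stretch with another gene.

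The balance between these dehydrogenases therefore differed within each library, which does not depend on the scaling between libraries. Per kb of the longest coding transcript, Aldh1a2 stood to Aldh1a1 as 1.02, 1.53 and 0.706 in CX3CR1- cells and as 0.142, 0.175 and 0.205 in CX3CR1+ cells. CX3CR1- cells thus held about equal levels of both, with a mean ratio of 1.09 ± 0.418 (SD, n = 3). Of the pair, CX3CR1+ cells held mostly Aldh1a1, with a mean ratio of 0.174 ± 0.0312 (SD, n = 3).

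The markers of other cells that can express these dehydrogenases also moved. All 7 of 7 conventional dendritic cell markers were higher in CX3CR1- cells, at a summed 3012 to 3618 against 181 to 245, and none was at 0 in all CX3CR1+ libraries. The 7 of 7 fibroblast markers were higher too, at 5258 to 16011 against 209 to 364. So were 10 of 10 enterocyte markers, at 17263 to 31979 against 27.2 to 56.9. Epithelial markers were higher for 5 of 5, at 1001 to 1255 against 7.05 to 16.1. Of the mesothelial markers 3 were tested and 1 was higher, at a summed 37.1 to 299 against 20.4 to 42.1. In CX3CR1- replicate 2, mesothelial markers had 8.89% of their CX3CR1- sum and fibroblast markers 17.1%, the lowest share of each. Conventional dendritic cell markers had 36.4% there, enterocyte markers 36.5% and epithelial markers 30.8%. Aldh1a2 had 35.6% and Aldh1a1 23.7% in that library. The part of each cell type in Aldh1a1 and Aldh1a2 was not tested.

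**Figure D2:**
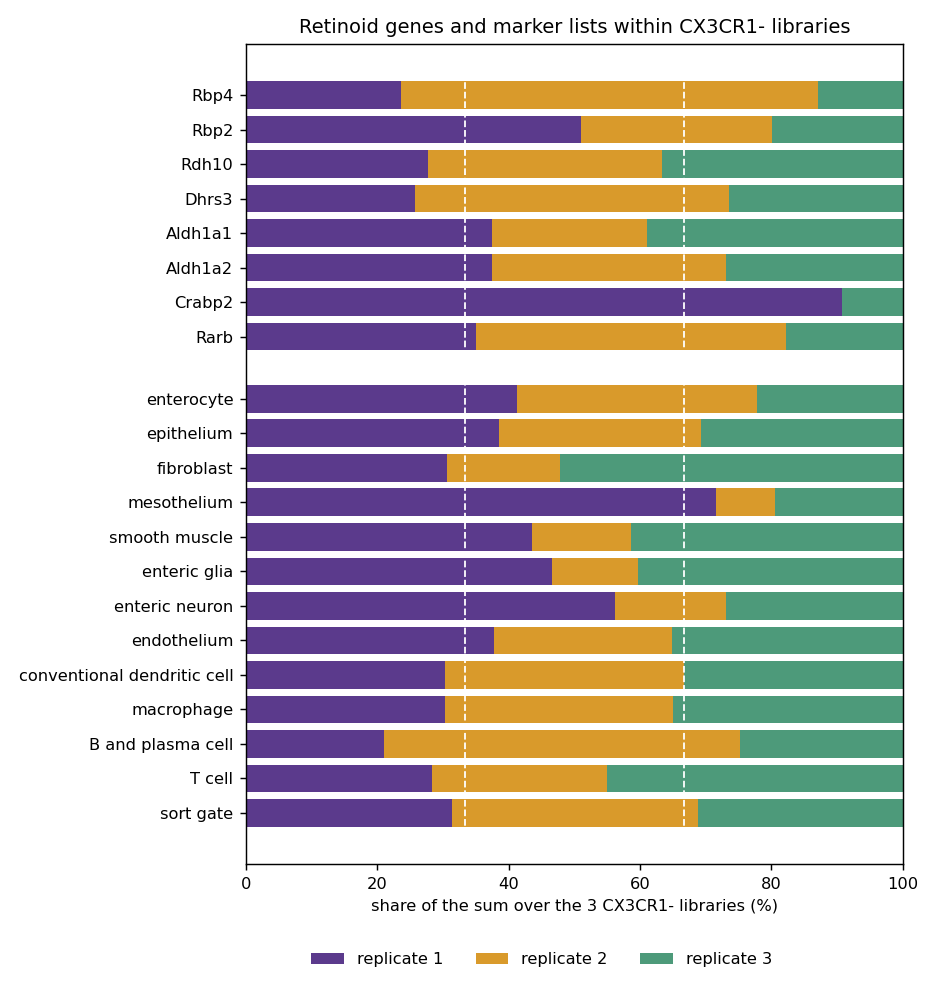
Share (x axis, %) of each of the 3 CX3CR1- libraries in their summed value, for the 8 listed retinoid genes and, below the gap, for 13 marker lists; dashed lines mark equal shares. Rbp2 and the enterocyte list are largest in replicate 1 and smallest in replicate 3, and Crabp2 lies at 90.7% in replicate 1. Rbp4, Rarb and Dhrs3 are largest in replicate 2, as are the B and plasma cell, sort gate and conventional dendritic cell lists.

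Crabp2 and Rarb were measured at low levels. Crabp2, which delivers retinoic acid to its receptors, was at 18.0, 0 and 1.86 in CX3CR1- cells and at 0.431, 0 and 0 in CX3CR1+ cells. Replicate 1 held 90.7% of the CX3CR1- sum with about 17.3 reads, and the other CX3CR1- libraries did not stand apart from CX3CR1+ cells. The log2 difference of 1.75 fell to 0.59 without that library. Mesothelial markers had their highest share, 71.6%, in the same library. Neuronal (56.1%), glial (46.6%), smooth muscle (43.6%), enterocyte (41.3%), epithelial (38.5%) and endothelial (37.7%) markers were highest there too. The part of each cell type in Crabp2 was not tested.

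Rarb, the receptor that retinoic acid induces, was at 16.04, 21.6 and 8.10 in CX3CR1- cells and at 2.08, 0.896 and 2.30 in CX3CR1+ cells. The populations did not overlap, although the values rest on 8.1 to 15.4 reads in a CX3CR1- library and on 1.1 to 4.5 reads in a CX3CR1+ library. The means were 15.2 ± 6.77 and 1.76 ± 0.755 (SD, n = 3 each), a ratio of 8.67 and a log2 difference of 2.50. With CX3CR1+ values under the limit of 3 reads set to that limit, Rarb was at least 5.20-fold higher. Rarb shares 32.1% of its 31-base stretches with Top2b, a topoisomerase gene on the opposite strand. The library kit does not mark strand, so reads of the shared stretch could come from either gene. Top2b itself differed by 0.02 on the log2 scale (standard error 0.30; limma, adjusted p = 0.964).

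The order of the genes by level differed between the populations. Per kb of the longest coding transcript, CX3CR1- cells had Rbp2 first at 1887 ± 903, ahead of Aldh1a2 at 389 ± 65.9 and Aldh1a1 at 381 ± 95.7 (SD, n = 3 each). The libraries of the dehydrogenases overlapped, so their order is not resolved. Dhrs3 followed at 185 ± 68.9 and Rdh10 at 20.5 ± 3.02, and their libraries overlapped neither each other nor the genes above. Rbp4, Crabp2 and Rarb came last at 9.44 ± 7.56, 7.12 ± 10.7 and 4.90 ± 2.18, overlapping among themselves, and the highest libraries of Rbp4 and Crabp2 also lay within the range of Rdh10. In CX3CR1+ cells Dhrs3 was first at 274 ± 44.05, followed by Aldh1a1 at 110.2 ± 25.3, Aldh1a2 at 18.7 ± 2.09 and Rdh10 at 8.10 ± 0.631, with no overlap between neighbours. The remaining genes lay at or below a mean of 1.30 per kb there.

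The 8 listed genes lie on 6 chromosomes of GRCm38. Rbp4 is at chr19:38116629-38125281 (minus strand), Aldh1a1 at chr19:20492715-20643465, Aldh1a2 at chr9:71215789-71296243 and Rbp2 at chr9:98486115-98509781 (all plus). Rarb spans chr14:16430839-16819156 (minus strand), and the printed promoter lies inside that gene model. Dhrs3 is at chr4:144892827-144928209, Crabp2 at chr3:87948666-87953376 and Rdh10 at chr1:16105774-16133734, all on the plus strand.

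The rest of the pathway was read from 52 further genes grouped by role, of which 45 were listed and 37 had a mean of at least 10. Of the 37, 10 were higher in CX3CR1- cells, 1 was lower and 26 did not pass, which is 29.7% passing beside 20.4% of all tested genes. The higher genes were 27.0% beside a background of 12.2%, and the lower gene 2.70% beside 8.15%. The median log2 fold change was 0.58 against -0.0035 for all tested genes. The list was chosen with earlier results of these data known, so its shares and median are a description. Isx and Aldh1a7, at 0 in every CX3CR1+ library, reached a mean of 10 only through CX3CR1- cells. Adh1, Bco1, Dhrs9 and Cyp26b1, with CX3CR1+ means of 0.28, 0.15, 1.7 and 3.1, did so too. Among genes that did not pass, so did Lrat, with a CX3CR1+ mean of 3.1, and Stra6, with a CX3CR1+ mean of 0. Counts by role below stand beside the same 20.4%, and nothing is read from them. After quantile normalization the split of the 37 was 10 higher and 4 lower, beside 1759 higher and 1704 lower of all 17812 tested genes.

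**Figure D3:**
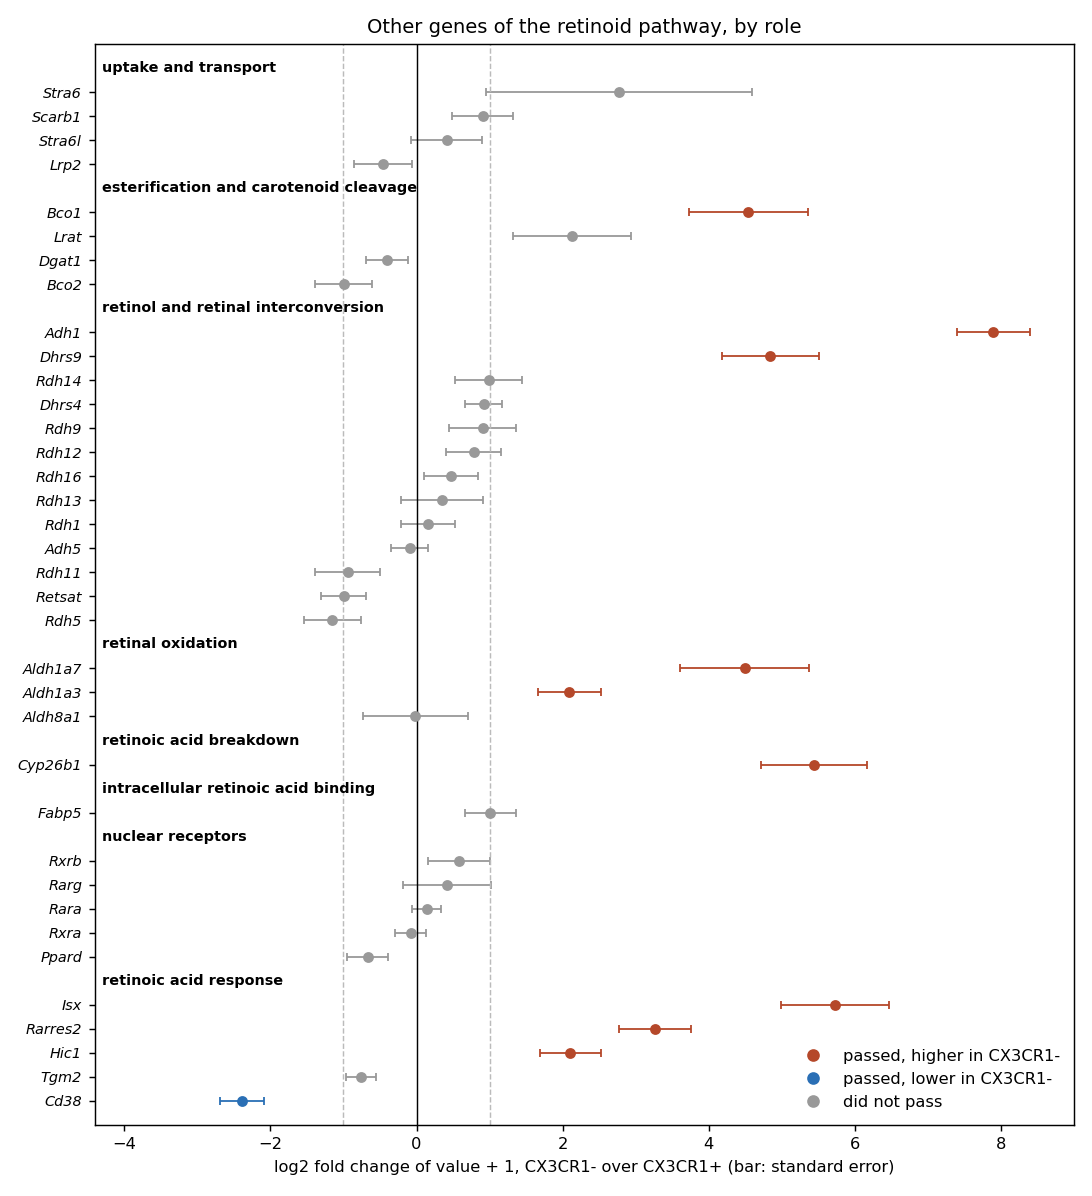
Fitted log2 fold change of value + 1 (x axis, CX3CR1- over CX3CR1+, bars are standard errors) for 36 of the tested pathway genes, by role; dashed lines mark a change of 1. The 9 plotted genes that passed as higher belong to 5 of the 8 roles, none of the receptors passed, and Cd38 alone passed as lower.

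In uptake and transport, Stra6, the cell surface receptor for RBP4, was at 0, 1.30 and 137 in CX3CR1- cells and at 0 in all CX3CR1+ libraries. Its signal came from replicate 3 alone, and it did not pass (log2 fold change 2.77, standard error 1.82; adjusted p = 0.316).

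In esterification and carotenoid cleavage, 1 of 4 passed. Bco1 was at 31.4, 29.5 and 17.4 in CX3CR1- cells and at 0.449, 0 and 0 in CX3CR1+ cells, about 1 read in all. Against the limit of 3 reads per library it was at least 9.68-fold higher (adjusted p = 0.00258). Lrat, which esterifies retinol for storage, was at 5.22, 26.8 and 29.9 against 1.85, 3.28 and 4.25 and did not pass (adjusted p = 0.0843). It passed without CX3CR1- replicate 1, its lowest CX3CR1- library (log2 fold change 2.87, adjusted p = 0.0152). Without CX3CR1+ replicate 1, 2 or 3 it did not pass (adjusted p = 0.219, 0.182 and 0.149). Without CX3CR1- replicate 2 or 3 it fell below the mean of 10 and was not tested.

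Between retinol and retinal, 2 of 13 passed, Adh1 and Dhrs9, both able to oxidize retinol. Adh1 was at 406, 264 and 228 in CX3CR1- cells, and in CX3CR1+ cells 1 read was seen in replicate 2 only. It was at least 111-fold higher against the limit of 3 reads per library (adjusted p = 5.59e-06). Dhrs9 was at 60.5, 51.9 and 90.7 against 2.31, 0 and 2.83, which is 4.84 higher on the log2 scale (standard error 0.67; adjusted p = 5.09e-04). Its CX3CR1+ values rest on 5, 0 and 2 reads, and the log2 value was 2.71 with a pseudocount of 10. With CX3CR1+ values under 3 reads set to that limit, Dhrs9 was at least 22.5-fold higher. The others ranged from Rdh5 at -1.15 (adjusted p = 0.0582) to Rdh14 at 0.99 (adjusted p = 0.152). Retsat, a saturase of retinol, was at -0.99 (adjusted p = 0.0396) and Dhrs4 at 0.92 (adjusted p = 0.0238), past the p but not the size. Among CX3CR1- libraries, Adh1 and Bco1 were highest in replicate 1 and lowest in replicate 3, as was the enterocyte list. Dhrs9 was highest in replicate 3. The part of enterocytes in Adh1, Bco1 and Dhrs9 was not tested.

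In retinal oxidation, 2 of 3 passed. Aldh1a3, the form best known from the eye and nose, was at 143, 83.8 and 121 in CX3CR1- cells and at 46.9, 23.5 and 15.6 in CX3CR1+ cells. It rose by 2.09 on the log2 scale (standard error 0.43; adjusted p = 0.00528). Aldh1a7 was at 35.5, 19.7 and 14.0 against 0 in all CX3CR1+ libraries, at least 8.53-fold higher (adjusted p = 0.00441). It shares 13.8% of its 31-base stretches with Aldh1a1, so its level is uncertain beside the higher level of that paralog. Bco1 and Aldh1a7 fell below the mean of 10 without CX3CR1- replicate 1 or without replicate 2 and were not tested there.

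Breakdown of retinoic acid was represented by Cyp26b1, the single tested gene of that role. It was at 219, 78.2 and 140.04 in CX3CR1- cells and at 6.02, 3.32 and 0 in CX3CR1+ cells. The populations did not overlap, and the gene rose by 5.44 on the log2 scale (standard error 0.73; adjusted p = 4.27e-04). Its CX3CR1+ values rest on about 13, 4 and 0 reads, and the log2 value was 3.49 with a pseudocount of 10. With CX3CR1+ values under 3 reads set to that limit, Cyp26b1 was at least 32.2-fold higher. Fabp5, a fatty acid-binding protein that also carries retinoic acid, did not pass (log2 fold change 1.01; adjusted p = 0.0592).

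None of the 5 tested nuclear receptors passed. Rara was at 368, 383 and 377 in CX3CR1- cells and at 349, 407 and 281 in CX3CR1+ cells, with overlap (log2 fold change 0.14, standard error 0.20; adjusted p = 0.679). Rxra, its common partner, was at -0.08 (standard error 0.21; adjusted p = 0.823), Rxrb at 0.58 (adjusted p = 0.368), Rarg at 0.42 (adjusted p = 0.674) and Ppard at -0.67 (adjusted p = 0.116).

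Among the other retinoic acid response genes, 3 of 5 tested were higher and 1 was lower. Isx, an intestinal homeobox repressor of Bco1 and Scarb1, was at 84.4, 27.8 and 59.3 in CX3CR1- cells and at 0 in all CX3CR1+ libraries. It was at least 21.2-fold higher (adjusted p = 3.47e-04), and it is a gene of intestinal epithelium, whose 5 of 5 markers were higher at a summed 1001 to 1255 against 7.05 to 16.1. Among CX3CR1- libraries Isx was lowest in replicate 2, at 0.387 times the mean of replicates 1 and 3. That ratio was 0.888 for the epithelial sum and 1.15 for the enterocyte sum. The part of epithelium in Isx was not tested. Rarres2, which encodes the chemoattractant chemerin, was at 336, 102 and 367 against 31.7, 25.3 and 15.6, which is 3.27 higher on the log2 scale (standard error 0.49; adjusted p = 8.78e-04). It shares 30.3% of its 31-base stretches with Lrrc61 on the opposite strand.

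Hic1, a transcriptional repressor, was at 112, 64.4 and 157 in CX3CR1- cells and at 35.2, 17.2 and 21.2 in CX3CR1+ cells (log2 fold change 2.10, standard error 0.42; adjusted p = 0.00462). Rarres2 and Hic1 were lowest in CX3CR1- replicate 2, as were Cyp26b1, Aldh1a3 and Isx. Marker sums lowest there were fibroblast (17.1% of the CX3CR1- sum), mesothelial (8.89%), smooth muscle (15.0%) and glial (13.1%). Neuronal (17.0%), endothelial (27.2%) and T cell (26.6%) sums were lowest there as well. The part of each cell type in these genes was not tested. Cd38, an NAD-consuming ectoenzyme that retinoic acid induces in myeloid cells, went the other way. It was at 185, 206 and 449 in CX3CR1- cells and at 1289, 1337 and 1451 in CX3CR1+ cells, and it fell by 2.39 on the log2 scale (standard error 0.30; adjusted p = 3.01e-04). Tgm2, transglutaminase 2, was at -0.75 (adjusted p = 0.0220), short of the size required.

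Across the 6 libraries the deposited values stood for about 5346379 to 17616748 reads, and 3 reads were worth 1.39 to 5.36. Cx3cr1 measured 23.2, 18.9 and 28.5 in CX3CR1- cells against 371, 380 and 347 in CX3CR1+ cells, in the direction of the sort. The 7 of 7 macrophage markers were lower in CX3CR1- cells, at a summed 3393 to 3925 against 19875 to 21888. Cx3cr1 is itself on that list, and its direction was set by the sort. Mitochondrial genes took 47.5 to 54.9% of the summed values in CX3CR1- libraries and 18.1 to 21.2% in CX3CR1+ libraries. Endothelial markers were higher for 3 of 4 (1081 to 1500 against 597 to 778) and glial markers for 3 of 4 (103 to 367 against 53.7 to 66.7). None of 6 smooth muscle, 2 neuronal and 1 T cell markers tested passed. Smooth muscle markers were present in both populations, at a summed 918 to 2675 in CX3CR1- and 1954 to 2745 in CX3CR1+ libraries.

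**Figure D4:**
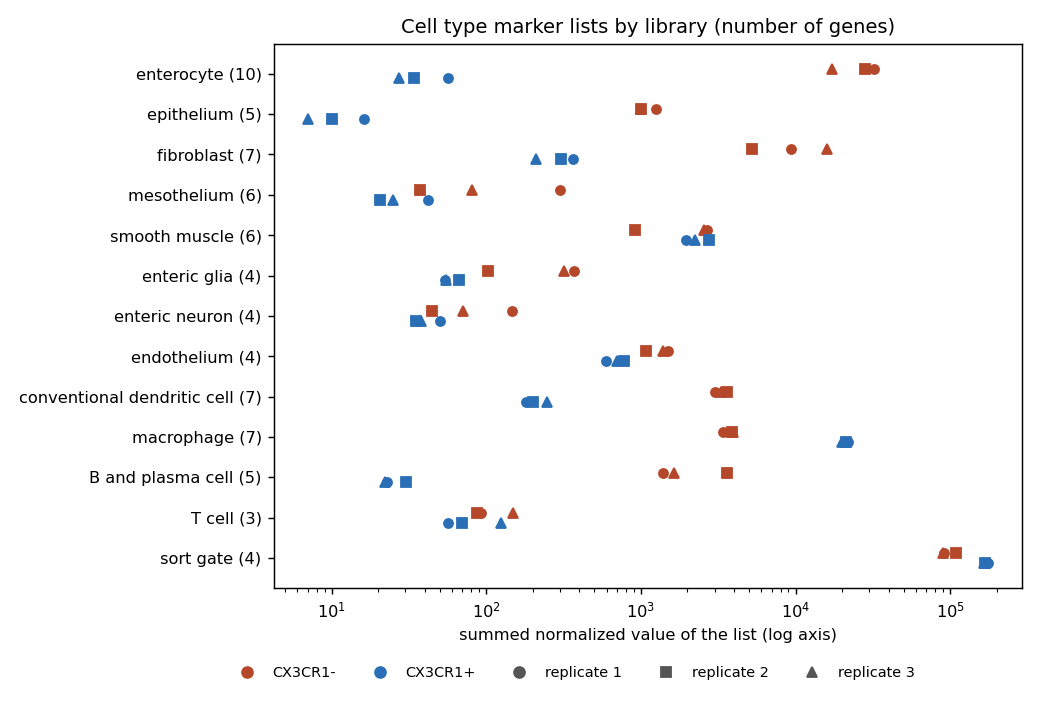
Summed normalized value (x axis, log scale) of each marker list in every library, with the number of genes in brackets; colours are the populations and shapes the replicates. Enterocyte, fibroblast, dendritic cell and B and plasma cell lists lie higher in all CX3CR1- libraries, and the macrophage list lies lower.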

How the data were processed

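RNA was sequenced by the authors in 3 CX3CR1- and 3 CX3CR1+ libraries as 75 bp single reads (TruSeq kit v2, not strand-marking). Reads were pseudoaligned with Kallisto (mm10, GENCODE M16), imported with tximport, summed per gene and normalized with DESeq2, tools that the submitters' processing notes also name in part. The deposited values are normalized signal between libraries. They were not whole multiples of a read in most cases (42.5 to 44.6% within 0.01), so the count test of the study was replaced by limma 3.58.1 in R 4.3.3 with an intensity trend on log2(value + 1). The two-sided test covered genes averaging 10 or more across the 6 libraries (17812 of 26110 rows, 23 duplicated symbols), and p-values were adjusted over all of them by Benjamini-Hochberg. Samples were grouped by title and replicates numbered in accession order. Approximate reads came from the smallest frequent step of each library and give the precision of low values, for counting error only. Positions and shared 31-base stretches were taken from GENCODE M21 (GRCm38), promoters from RefSeq (GRCm38.p6). The fit was tested on simulated data. The text names all 9 genes, the pathway genes that passed and others by role, the 3 genes most like each of the 9 in profile, and markers beside a result. Genes, lists and markers were chosen with earlier results of these data known. Of the genes counted, 1 pathway gene and 1 marker are not reported here by value. Alternatives covered the pseudocount, the filter, the scaling, the trend, library weights, each library left out and, added later, a block by library number.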

Additional observations from a re-analysis of the deposited data

How the results depend on the processing

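Directions of the 8 retinoid genes were kept under the 2 other pseudocounts, both rescalings and each library left out, and 74 of these 80 values moved by less than the spread between replicates. The filters, the trend, library weights and the block do not enter those differences. With a pseudocount of 10 the log2 differences were 4.08 for Aldh1a2, 7.06 for Rbp2, 0.81 for Rbp4, 1.07 for Rarb and 1.09 for Rdh10, and after quantile normalization Rdh10 was at 0.999. Quantile normalization shifted the median of all genes to -0.15 and gave 3463 genes (1759 higher, 1704 lower) against 3628 (2177 and 1451), and Bco2 (-1.35), Rdh5 (-1.52) and Retsat (-1.15) then also passed. With a mean of at least 50, fewer genes were tested, 2413 passed (1232 higher, 1181 lower), and 6 of the 11 pathway genes remained. Leaving out 1 library gave 2771 to 3869 genes and 11 to 12 pathway genes. Bco1 and Aldh1a7 were then not tested without CX3CR1- replicate 1 or 2, and Lrat, Rdh9, Retsat, Bco2, Fabp5 or Rdh5 passed in single cases. Over libraries left out, the difference ranged from 0.59 to 2.71 for Crabp2, 1.94 to 3.32 for Rbp4 and -0.91 to -0.46 for Dhrs3. Of 526 values for tested pathway genes, 13 crossed 0, all for genes that did not pass. Aldh8a1 was at 0.033 with a pseudocount of 10 and 0.014 with library weights, and Rdh1 at -0.18 and Rdh13 at -0.036 after quantile normalization. With 1 library left out, Aldh8a1 ranged from -0.31 to 0.51, Rdh1 from -0.0046 to 0.34, Rdh13 from -0.30 to 0.83, Adh5 from -0.23 to 0.0031, Rarg from -0.12 to 0.99, Rxra from -0.19 to 0.015 and Rara from -0.0031 to 0.26. The cause was not tested. The labels give no pairing, but the library numbers in the titles fall into 3 adjacent sets with 1 library of each population. A fit with these as a replicate block, chosen after seeing the data, gave 3610 genes (2165 higher, 1445 lower) and the same 11 pathway genes. Deviations of libraries in the same set correlated at 0.104, 0.038 and 0.014 over genes, and CX3CR1- replicate 3 correlated better (0.040) with a library of another set. Depth limits Rbp4, Rarb and Crabp2, which rest on few reads.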

Other observations

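The genes whose profiles over the 6 libraries were most like those of the retinoid genes differed from gene to gene. The measure was the root mean square difference of log2(value + 1) profiles, each centred on its own mean. Aldh1a1 was most like the mitochondrial genes mt-Atp8 (0.11), mt-Nd6 (0.12) and mt-Nd2 (0.16). mt-Nd2 was at 60742, 35401 and 61537 in CX3CR1- cells and at 15221, 10052 and 11866 in CX3CR1+ cells, with the same low CX3CR1- replicate 2 as Aldh1a1. Aldh1a2 was most like Ccdc170 (0.16), Rgs16 (0.17), a regulator of G protein signalling, and Lrrc17 (0.18).

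Rarb was most like Ddr1 (0.16), a collagen receptor, Ptprr (0.17) and Me2 (0.22), a mitochondrial malic enzyme. Dhrs3 was most like Pqlc2 (0.068), A330069E16Rik (0.092) and Slc38a9 (0.101), a lysosomal amino acid transporter, whose levels were likewise highest among CX3CR1- libraries in replicate 2. Slc38a9 was at 136, 245 and 155 in CX3CR1- cells and at 276, 245 and 233 in CX3CR1+ cells. Rdh10 was most like 1700063D05Rik (0.105), Slc9a7 (0.108) and Anxa6 (0.12), which ran at 504, 587 and 635 against 239, 219 and 217. The sparse genes had the least close matches, Rbp4 with Noxred1 (0.42), Cadm2 (0.46) and Rgs12 (0.46), and Crabp2 with Nxn (0.36), Sorcs1 (0.36) and Jph3 (0.37). With 6 libraries in 2 populations, many genes share such profiles, and likeness is a description only.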
